A study of Mus musculus with 42 samples.

Results

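The phosphatidylinositol 3-kinase (PI3K) subunits form a small family of 10 genes, each found by its symbol among the 22186 genes measured. They are the class IA catalytic genes Pik3ca (p110α), Pik3cb (p110β) and Pik3cd (p110δ), the class IA regulatory genes Pik3r1 (p85α), Pik3r2 (p85β) and Pik3r3 (p55γ), the class II genes Pik3c2a and Pik3c2b, and the class III genes Pik3c3 (Vps34) and Pik3r4 (Vps15). Poly(A) RNA was sequenced from 42 mouse libraries in 14 groups of 3, to ask how cells of different types respond to bisphenol S (BPS), an estrogen mimetic used in place of bisphenol A. A first series held induced pluripotent stem cells (iPSCs) given the ethanol vehicle or 1, 50 or 100 μM BPS. Sertoli cells, granulosa cells and primordial germ cell-like cells (PGCLCs) each received vehicle or 1 μM BPS. In a second iPSC experiment, here the propagation experiment, iPSCs given vehicle or 1 μM BPS were sampled together with the PGCLCs later derived from them, which had no contact with BPS after the iPSC stage.

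Exposure lasted 24 h in all groups. Recovery without BPS or ethanol lasted 24 h, or 8 h for the directly exposed PGCLCs before sorting. The iPSCs were 1 male line, reprogrammed with doxycycline from fibroblasts of a single fetus carrying the tetO-4F2A cassette, and every PGCLC library descends from that line through epiblast-like cells and a sort for FUT4 and ITGB3. The Sertoli and granulosa cultures were primary cells pooled from juvenile littermates and split into flasks. The 3 replicates of a group are therefore cultures of 1 line or 1 pool, and p-values measure only the spread among them. Values are read counts scaled to library size (CPM), and in bulk cultures fewer cells of a type and less RNA per cell cannot be told apart.

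Class I PI3Ks act below growth factor receptors. A catalytic p110 subunit is stabilised, held in check and brought to phosphorylated receptors by a regulatory subunit, and its lipid product recruits AKT, which restrains FOXO transcription factors and feeds mTOR. Class II enzymes make other phosphoinositides on endosomes and clathrin-coated structures. The class III enzyme Vps34, with its regulatory partner Vps15, makes the lipid that drives endosome sorting and autophagy. In cultured stem cells PI3K activity is known for supporting self-renewal, and in the gonad for acting below KIT and insulin-like growth factor receptors.

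The sequences just before the first annotated start of Pik3r3, Pik3ca and Pik3c2a are shown because these genes rose together in BPS-exposed PGCLCs and Pik3r3 rose in the iPSC dose series. On GRCm38 (GENCODE M21) the gene models are chr4:116221618-116303056 for Pik3r3, chr3:32397671-32468486 for Pik3ca and chr7:116337265-116443449 for Pik3c2a. Each window thus lies outside and before its gene model, with a gap between them that is widest for Pik3ca. The windows are from RefSeq (GRCm38.p6), 5′ to 3′ on the gene's strand, ending before the first start in either RefSeq or GENCODE. Capitals mark the GC box GGGCGG, the hormone response element core AGGTCA and the xenobiotic response element core GCGTG, each read on both strands.
Pik3r3, chr4:116221166-116221399, plus strand: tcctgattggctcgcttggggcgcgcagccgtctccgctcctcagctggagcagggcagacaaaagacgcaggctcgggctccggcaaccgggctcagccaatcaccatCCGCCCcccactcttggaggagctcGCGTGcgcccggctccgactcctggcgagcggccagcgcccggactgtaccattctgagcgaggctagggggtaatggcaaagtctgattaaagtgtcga
Pik3ca, chr3:32396815-32397064, plus strand: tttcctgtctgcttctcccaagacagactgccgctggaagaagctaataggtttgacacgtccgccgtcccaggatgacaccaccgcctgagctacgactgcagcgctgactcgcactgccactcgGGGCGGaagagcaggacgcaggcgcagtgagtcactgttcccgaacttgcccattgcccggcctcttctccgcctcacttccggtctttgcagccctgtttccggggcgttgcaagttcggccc
Pik3c2a, chr7:116443466-116443708, minus strand: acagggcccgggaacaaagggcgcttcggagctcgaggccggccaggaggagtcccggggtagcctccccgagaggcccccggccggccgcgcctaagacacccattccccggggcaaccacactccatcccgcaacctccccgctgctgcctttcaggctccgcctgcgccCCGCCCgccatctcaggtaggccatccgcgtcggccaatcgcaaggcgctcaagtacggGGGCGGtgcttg
Pik3r3 held 1 GC box and 1 GCGTG, Pik3ca held 1 GC box, and Pik3c2a held 2 GC boxes. AGGTCA was in none of the 3. Among the 9 members read this way, which leaves out Pik3c3, a GC box stood within 250 bases of the start in 8, against 32.7% of 32851 such windows. The core GCGTG was in 3 (Pik3r2, Pik3r3 and Pik3r4), against 28.2% of windows, and AGGTCA in 1 (Pik3r4), against 14.02%. The full estrogen response element, which overlaps AGGTCA, and the forkhead element GTAAACA were in 0 of the 9 and in 0.0639% and 3.17% of windows. The 3 printed windows held 65.4% (Pik3r3), 61.6% (Pik3ca) and 71.6% (Pik3c2a) G and C, against a median of 52.4% over all windows. The shares of windows were not matched for this, and they count every window while each member was read at its first start. The matches are letters in a window and were not tested for binding.

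All 10 members were measured in every library and all passed the filter of every comparison. The deepest library held 44524376 reads and the shallowest 26693847. The weakest member values were 24 reads for Pik3c2b and 35 for Pik3cd in Sertoli cells, while Pik3r1 reached 8260 reads. The table also carries a second row for Pik3r2 and for Pik3cd, at 1.17 and 0.832 times the level of the first in the median library. Reads of one locus may thus be divided between 2 rows, and per-length values below add them. The cultures carried markers of their labelled types, with exceptions. Granulosa cells had Foxl2 at 140 CPM and Inha at 1300, but Fshr at 0.451 and Amh at 0.708. Sertoli cells had Sox9 at 336 and Cldn11 at 1508, with Amh at 7.49. Both somatic cultures also held the smooth muscle marker Acta2, at 945 CPM in Sertoli and 1909 in granulosa cells with vehicle. The 3 stromal markers Col1a1, Dcn and Pdgfra summed to 693 to 739 CPM in Sertoli and 1425 to 1519 in granulosa cells with vehicle, and to 2.28 to 2.80 in iPSCs, and the part of these cells in differences between the cultures was not tested.

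Across the vehicle groups the family separated into genes that varied with cell type and genes that hardly did. Pik3cd, the catalytic subunit best known from leukocytes, varied most, its highest vehicle mean being 14.2 times its lowest. Its level was 25.1, 29.1 and 26.5 CPM in the 3 granulosa libraries, and 2.00, 1.97 and 1.73 CPM in the 3 Sertoli libraries. The 6 leukocyte markers summed to 8.80 to 10.2 CPM in granulosa and 8.82 to 10.1 in Sertoli cells, with Ptprc at 0.408 in granulosa cells. The same sum was higher in vehicle iPSCs (111 to 126) and PGCLCs (50.1 to 53.5), so it does not count leukocytes alone. The source of Pik3cd was not tested. Granulosa cells (26.9 CPM ± 2.03, SD, n = 3) and vehicle derived PGCLCs (25.0 ± 1.32) overlapped at the top of the order, followed by propagation iPSCs (11.6 ± 0.448) and PGCLCs (10.97 ± 0.835), which overlapped, then iPSCs (8.33 ± 0.950) and Sertoli cells (1.90 ± 0.148).

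Pik3r1, the most widely used regulatory subunit, was highest in granulosa cells. It stood at 159, 181 and 171 CPM in granulosa libraries with vehicle and between 19.0 and 30.1 in every other vehicle library. Sertoli cells came next (28.4 ± 1.48), and the 4 iPSC and PGCLC vehicle groups overlapped with their neighbours in the order. Pik3c2b ran the other way. It was highest in derived PGCLCs (15.7 ± 1.18) and propagation iPSCs (14.8 ± 0.336), and lowest in granulosa (3.56 ± 0.161) and Sertoli cells (1.45 ± 0.372).

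Pik3c2a and Pik3ca were high in both somatic types. Pik3c2a reached 116 CPM ± 3.83 in Sertoli and 112 ± 1.35 in granulosa cells, which overlapped, against 34.2 ± 0.678 in propagation iPSCs. Pik3ca reached 90.7 ± 2.04 in granulosa and 87.2 ± 1.71 in Sertoli cells, against 33.5 ± 1.74 in PGCLCs. Pik3cb was highest in Sertoli cells (83.1 ± 2.53), then derived PGCLCs (53.2 ± 3.15), with 38.8 ± 1.75 in granulosa cells and 29.9 ± 2.62 in PGCLCs. Pik3r2 was highest in granulosa cells (45.7 ± 1.24) and lowest in iPSCs of the dose series (24.1 ± 0.409), with 32.4 ± 3.11 in propagation iPSCs. Pik3r3 ran from 31.2 ± 0.286 in granulosa cells to 13.7 ± 0.479 in PGCLCs. The class III pair was the flattest of the family. Pik3c3 kept within 1.37 times across the vehicle means, from 41.5 ± 0.550 in granulosa cells to 56.8 ± 2.70 in derived PGCLCs. Pik3r4 was lower in granulosa (40.3 ± 0.621) and Sertoli cells (44.8 ± 1.07) than in the 4 iPSC and PGCLC groups (72.3 to 75.5).

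**Figure D1:**
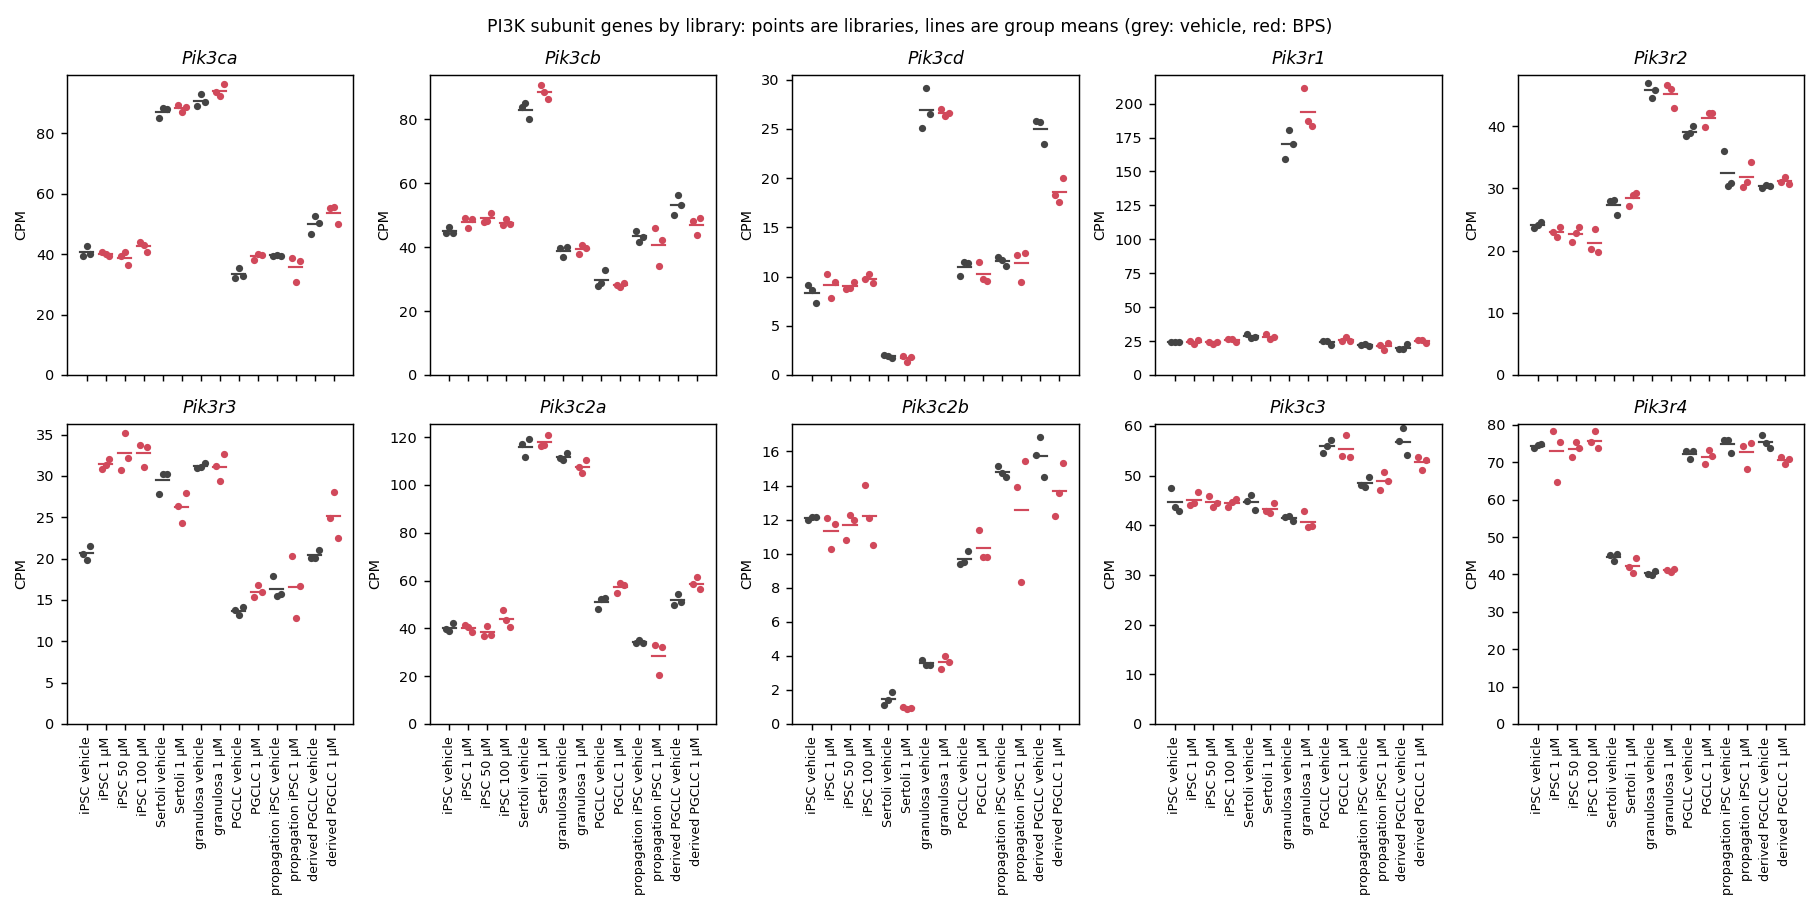
CPM of each of the 10 PI3K subunit genes in each library of the 14 groups, with a line at each group mean (grey, vehicle; red, BPS). Pik3r1 stands apart in granulosa cells (170 CPM with vehicle), Pik3cd is lowest in Sertoli cells (1.90) and Pik3r3 is higher at every BPS dose of the iPSC series (31.4 to 32.8) than with vehicle (20.6).

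A limma fit over the 18 vehicle libraries tested these differences, with a gene called where its p, after Benjamini-Hochberg adjustment across all genes, was at most 0.05. Between Sertoli and granulosa cells, 3 members were higher in Sertoli cells and 4 lower, against 33.7% and 35.9% of all genes. The largest were Pik3cd (log2 fold change -3.80 ± 0.09, SE), Pik3r1 (-2.58 ± 0.07) and Pik3c2b (-1.31 ± 0.13), all lower in Sertoli cells, and Pik3cb (1.10 ± 0.06), higher there. Pik3r2 was lower by limma (-0.75 ± 0.06) and Pik3r4 higher (0.15 ± 0.03). Pik3c3 was the weakest call (0.11 ± 0.04, adjusted p = 0.0385) and lost it without Sertoli replicate 1 or 2, or any 1 granulosa replicate. Pik3ca (-0.06), Pik3r3 (-0.09) and Pik3c2a (0.05) were not called. Upper-quartile scaling also ended the call of Pik3c3 and brought in Pik3ca (-0.13) and Pik3r3 (-0.16).

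Against vehicle iPSCs of the dose series, Sertoli cells had 6 members higher and 3 lower by limma (43.7% and 45.4% of all genes). Granulosa cells had 6 higher and 4 lower (43% and 45.4%). Pik3c2a was the strongest rise from iPSC to Sertoli cells (log2 fold change 1.53 ± 0.04, SE) and Pik3c2b the strongest fall (-3.06 ± 0.13). Pik3ca (1.10), Pik3r3 (0.51), Pik3r1 (0.22) and Pik3r2 (0.17) were also higher and Pik3r4 (-0.73) lower, while Pik3c3 (-0.00) was not called. The calls of Pik3r1 and Pik3r2 were lost under upper-quartile scaling, where Pik3c3 (-0.12) was called. Against the other vehicle iPSCs Pik3r2 went the other way, at 30.4 to 36.0 CPM in propagation iPSCs and 25.6 to 28.1 in Sertoli cells, which was not tested. From iPSC to granulosa cells the largest rise was in Pik3r1 (2.80 ± 0.07), with Pik3cd at 1.69 ± 0.09 and Pik3c2a at 1.47 ± 0.04. Pik3ca (1.16), Pik3r2 (0.92) and Pik3r3 (0.60) were higher there too, and Pik3c2b (-1.76) and Pik3r4 (-0.88) lower. Pik3cd and Pik3cb had opposite signs in the somatic types. Pik3cd was -2.11 ± 0.09 against iPSCs in Sertoli cells, and Pik3cb was 0.88 ± 0.06 there and -0.21 ± 0.06 in granulosa cells. Pik3c3 was the weakest call in granulosa cells (-0.11, adjusted p = 0.0271), lost under median-ratio scaling and without iPSC vehicle replicate 1 or granulosa vehicle replicate 3. So many genes were called in these comparisons that the members' counts sit near the background.

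In derived PGCLCs against propagation iPSCs, both with vehicle, 6 members were higher and 0 lower by limma (35.9% and 37.4% of all genes). Pik3cd rose 2.15 times (log2 fold change 1.10 ± 0.09), and Pik3c2a (0.59 ± 0.04), Pik3ca (0.33 ± 0.05), Pik3r3 (0.32 ± 0.06), Pik3cb (0.29 ± 0.06) and Pik3c3 (0.23 ± 0.04) were also higher. Pik3r1 (-0.14), Pik3r2 (-0.09), Pik3c2b (0.08) and Pik3r4 (0.01) were not called. Of these only Pik3r1 had an unadjusted p under 0.05, and it was called lower (-0.23, adjusted p = 0.00404) without derived PGCLC vehicle replicate 3. limma-voom also called 6 members in all. The derived PGCLC libraries held more of the stromal markers Col1a1, Dcn and Pdgfra (258.6 to 382 CPM summed, 3 of 3 measured) than the iPSCs (1.55 to 2.21), whose part in these differences was not tested.

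Levels per kilobase of exon, from GENCODE M21 on GRCm38 with the second rows added, compare the genes with each other. In iPSCs with vehicle, Pik3cb made up 47.4% ± 0.573 (SD, n = 3) of the class IA catalytic signal, Pik3ca 33.9% ± 0.819 and Pik3cd 18.7% ± 1.21. Sertoli cells had little Pik3cd (2.44% ± 0.332), and Pik3cb (53.3% ± 0.808) and Pik3ca (44.3% ± 1.11) made up nearly all of it. In granulosa cells Pik3ca took 42.5% ± 0.338, Pik3cd 34.5% and Pik3cb 23.0% ± 1.38. The Pik3cd shares rest on its second row. Without it they were 11.02% in iPSCs, 1.42% in Sertoli cells and 21.8% in granulosa cells, where Pik3cb (27.5%) then stood above Pik3cd.

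Pik3r2 led the regulatory genes per kilobase in every group, from 48.7% ± 1.39 in BPS-exposed granulosa cells to 80.2% ± 0.374 in PGCLCs with vehicle. Pik3r1 held 36.4% ± 1.72 in granulosa cells with vehicle and at most 12.8% ± 0.20 in the other vehicle groups. Without the second row of Pik3r2, Pik3r1 led in granulosa cells, at 50.0% ± 2.01 against 32.5% ± 1.64, and Pik3r3 led in the 3 BPS-exposed groups of the iPSC series, at 42.7%, 44.1% and 44.8% against 39.7%, 38.8% and 36.6% for Pik3r2. With the second rows added, the regulatory sum per kilobase was 1.44 ± 0.0590 times the catalytic sum in iPSCs and 1.05 ± 0.0112 times in Sertoli cells. It was 1.97 ± 0.0151 times in granulosa cells and 2.30 ± 0.154 times in PGCLCs, all with vehicle. These ratios rest on the second rows, as the shares do. They were not computed without them, so their size and their order between cell types may depend on those rows. With BPS the Pik3r3 share in the iPSC series was 29.5% ± 1.32, 30.7% ± 2.03 and 30.4% ± 1.84 at the 3 doses, against 20.5% ± 0.702 with vehicle, while the ratio of the sums was 1.45 ± 0.0143 at 1 μM. Shares and ratios are of RNA, and the BPS differences in them were not tested.

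**Figure D2:**
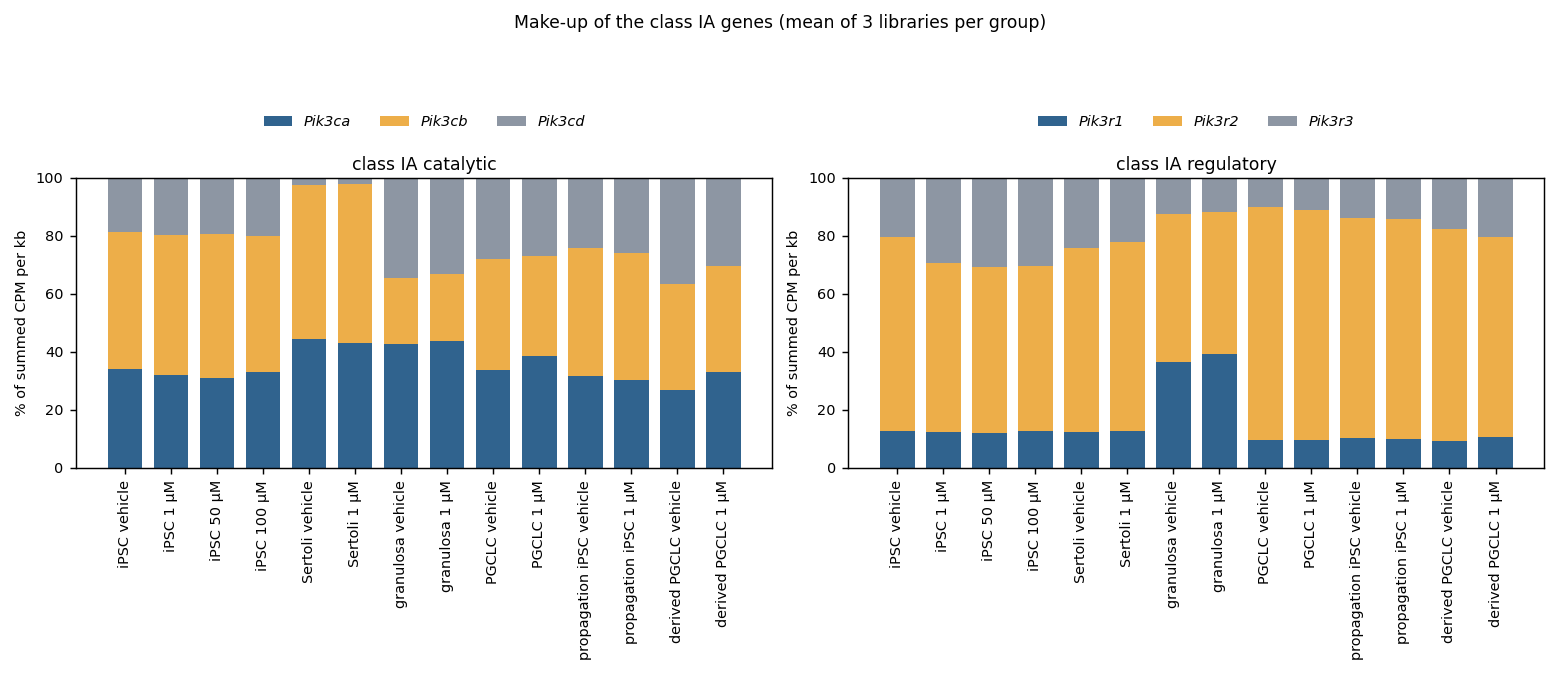
Mean share of each gene in the summed CPM per kilobase of the class IA catalytic genes (left) and regulatory genes (right), in percent, for the 14 groups of 3 libraries. Pik3cd is 2.44% of the catalytic signal in Sertoli cells with vehicle and 34.5% in granulosa cells, and the Pik3r3 share is 20.5% in iPSCs with vehicle and 29.5% to 30.7% with BPS.

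BPS changed 1 subunit clearly in the iPSC dose series, the regulatory gene Pik3r3, whose short subunit p55γ lacks the amino-terminal domains of p85. Pik3r3 read 20.5, 19.8 and 21.6 CPM in the vehicle libraries. It read 30.8, 31.3 and 32.0 at 1 μM, 30.7, 35.2 and 32.2 at 50 μM, and 33.8, 31.0 and 33.5 at 100 μM. Every exposed library was above every vehicle library, and the 3 doses overlapped each other. The log2 fold changes from limma were 0.61 ± 0.06 (SE), 0.66 ± 0.06 and 0.67 ± 0.06, or 1.52, 1.58 and 1.59 times the vehicle level, with adjusted p of 1.10e-05, 7.87e-07 and 7.35e-07. The 3 comparisons share the same 3 vehicle libraries and so are not separate evidence. Pik3r3 was called under all 15 alternatives at each dose, those without any 1 replicate included.

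**Figure D3:**
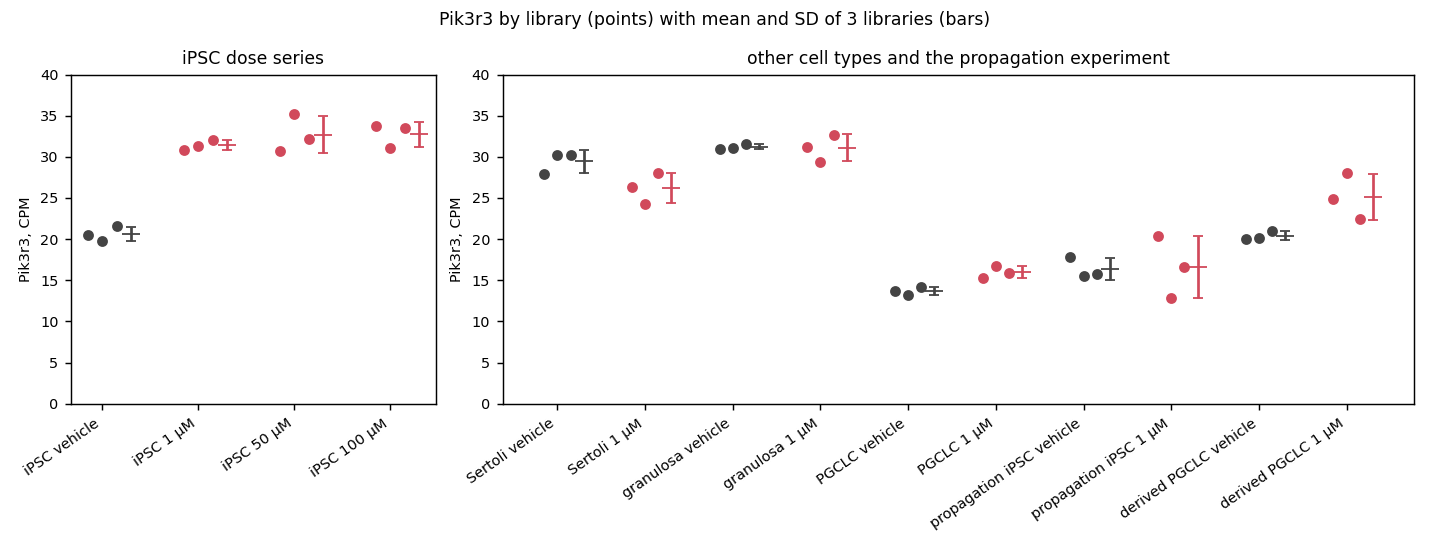
Pik3r3 CPM in each library (points), with the mean and SD of the 3 libraries of a group (bars), in the iPSC dose series (left) and in the other groups (right). The vehicle iPSCs lie at 19.8 to 21.6 CPM and all exposed iPSCs of the series at 30.7 to 35.2, while the propagation iPSCs overlap (15.5 to 17.8 with vehicle, 12.8 to 20.4 with BPS).

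Dose made no detectable difference to Pik3r3 from 1 μM upwards. By limma the log2 difference was 0.06 between 50 and 1 μM (95% interval -0.07 to 0.19), 0.06 between 100 and 1 μM (-0.07 to 0.19) and 0.00 between 100 and 50 μM (-0.13 to 0.13). The limma fit called 0 members in the 3 dose contrasts (0.00612%, 0.44% and 0.055% of all genes), with 0, 0 and 2 at an unadjusted p under 0.05 and 0 by limma-voom. The 2 were Pik3c2a (0.20 ± 0.06, adjusted p = 0.377) and Pik3ca (0.14 ± 0.06, adjusted p = 0.503), higher at 100 than at 50 μM.

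The other 9 members stayed near their vehicle levels at 1 μM, from a log2 fold change of -0.09 (Pik3c2b) to 0.14 (Pik3cd) by limma, with Pik3cb at 0.09, Pik3r1 and Pik3c3 at 0.01, Pik3c2a at -0.00, Pik3ca at -0.02, Pik3r4 at -0.03 and Pik3r2 at -0.07. The count was thus 1 higher and 0 lower, against 5.61% and 2.94% of all genes, and 1 at 50 μM (13.1% higher, 13.3% lower). At 50 μM Pik3cb had its libraries (47.9, 48.4 and 50.8 CPM) above those of vehicle (44.4, 46.4 and 44.4), with an adjusted p of 0.0810 (called under upper-quartile scaling, 0.16). The other 8 were at 0.12 (Pik3cd), -0.09 (Pik3r2), -0.07 (Pik3ca and Pik3c2a), -0.05 (Pik3c2b), -0.02 (Pik3r1 and Pik3r4) and -0.00 (Pik3c3). At 100 μM 1 member was higher and 1 lower (15.3% and 15.4% of all genes). The second was Pik3r2, at 20.3, 23.4 and 19.8 CPM against 23.7, 24.2 and 24.5 with vehicle, a log2 change of -0.19 ± 0.07 by limma (adjusted p = 0.0382). That call was lost without any 1 vehicle replicate or without 100 μM replicate 1 or 3, under upper-quartile scaling, and when the second Pik3r2 row was added (-0.12, adjusted p = 0.0981). Pik3cd was higher at 100 μM without passing (9.75, 10.2 and 9.31 CPM against 9.10, 8.63 and 7.27, adjusted p = 0.0867), and was called under upper-quartile scaling and in a fit of the 6 libraries alone. The rest were at 0.12 (Pik3c2a), 0.09 (Pik3r1), 0.08 (Pik3cb), 0.07 (Pik3ca), 0.03 (Pik3r4), 0.00 (Pik3c2b) and -0.00 (Pik3c3).

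Ranges that did not overlap the vehicle range were no rarer among other genes. They were seen in 1 member at 1 μM (27.5% of all genes), in 2 at 50 μM (43.9%) and in 4 at 100 μM (49.2%). Sequencing was deeper at 1 and 100 μM (33363935 to 44524376 reads) than with vehicle (27782761 to 30991751), and at 50 μM it was 28111640 to 31079851. The part of depth in the Pik3r3 result was not tested. The pluripotency markers summed to 3606 to 3686 CPM with vehicle and 3597 to 3748 at 1 μM. The 5 PGCLC markers summed to 168 to 172 CPM with vehicle and 134 to 144 at 1 μM, and the part of that difference in the Pik3r3 result was not tested.

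In the propagation experiment no rise of Pik3r3 was detected, with an interval that leaves room for a smaller one. It read 17.8, 15.5 and 15.7 CPM with vehicle and 20.4, 12.8 and 16.7 with 1 μM BPS, groups that overlapped, for a log2 difference of -0.00 ± 0.16 by limma (95% interval -0.39 to 0.38). The exposed replicate 2 was the lowest of its group in all members but Pik3r2 and Pik3c3, as in Pik3c2a (33.0, 20.5 and 32.1 CPM against 33.8 to 35.03) and Pik3c2b (13.9, 8.32 and 15.4 against 15.2, 14.7 and 14.5). Without it the Pik3r3 difference was 0.17 ± 0.08 (adjusted p = 0.196) and that of Pik3c2a moved from -0.30 to -0.07. By limma 0 members were called (0.0128% of all genes higher, 0% lower), with 0 at an unadjusted p under 0.05 and 0 by limma-voom. Among all genes limma called 2 of 15572, 1744 had an unadjusted p under 0.05 and limma-voom called 0. The ranges were apart in 2 members, Pik3ca and Pik3c2a, both lower, against 26.4% of all genes.

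The difference in the Pik3r3 response between the 2 iPSC experiments was 0.61 ± 0.18 on the log2 scale by limma (95% interval 0.21 to 1.00, adjusted p = 0.877). No gene passed in that limma fit (0% of 16233), with 693 genes at an unadjusted p under 0.05 and 0 called by limma-voom. Of the members only Pik3r3 was under it, and limma-voom called 0 members. The vehicle level also differed, at 20.6 CPM ± 0.875 in the dose series and 16.4 ± 1.30 in the propagation experiment.

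PGCLCs exposed to 1 μM BPS had 3 members higher and 0 lower by limma, against 15.4% and 11.3% of all genes. Pik3ca, the catalytic p110α, read 32.2, 35.5 and 32.7 CPM with vehicle and 38.0, 40.1 and 39.7 with BPS. The groups did not overlap, and the log2 fold change was 0.23 ± 0.05 (SE), or 1.17 times (limma, adjusted p = 0.00243). Pik3ca was called under all 15 alternatives.

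Pik3r3 read 13.7, 13.2 and 14.1 CPM with vehicle and 15.3, 16.8 and 15.9 with BPS, again apart, for a log2 fold change of 0.22 ± 0.06 (limma, adjusted p = 0.0157). Its call was lost without vehicle replicate 2 or BPS replicate 2. Pik3c2a, which makes phosphoinositides on clathrin-coated membranes, read 48.1, 52.3 and 52.6 CPM with vehicle and 54.6, 58.9 and 58.02 with BPS (0.17 ± 0.05, limma adjusted p = 0.0137). Its call was lost without vehicle replicate 1, BPS replicate 2 or BPS replicate 3. A fit of all 42 libraries kept Pik3ca alone. The median log2 fold change of the 10 members was 0.09, beside 0.02 for all genes.

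The remaining members were not called in PGCLCs. Pik3r1 was at 0.11, Pik3c2b at 0.09, Pik3r2 at 0.08, Pik3c3 and Pik3r4 at -0.02, Pik3cb at -0.08 and Pik3cd at -0.10 (log2 fold changes by limma). Ranges were apart in 3 members, against 41.3% of all genes. In the same libraries the 5 pluripotency markers summed to 1809 to 2015 CPM with BPS against 2301 to 2358 with vehicle, the 5 PGCLC markers to 199 to 228 against 242 to 248.5, and the 3 stromal markers to 70.2 to 74.9 against 62.6 to 64.3. Transcripts of the ribosomal RNA type are a list that also holds other RNAs, such as Rn7sk and Rmrp. They took 1.84% of reads in vehicle replicate 1, but 0.0773% and 0.142% in vehicle replicates 2 and 3. With BPS they took 0.0725%, 0.218% and 0.493%, so the high value was that of 1 library. The part of the marker shifts and of these transcripts in the PI3K values was not tested.

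In PGCLCs derived from exposed iPSCs 0 members were called by limma (0% of all genes higher, 0% lower), with 5 at an unadjusted p under 0.05 and 0 by limma-voom. Yet the ranges of 8 members were apart, 4 above and 4 below vehicle, against 21.8% of all genes. Pik3cd read 25.7, 25.7 and 23.4 CPM with vehicle and 18.3, 17.6 and 19.96 in those from exposed iPSCs, a log2 difference of -0.42 ± 0.08 (limma adjusted p = 0.194). Pik3r3 read 20.1, 20.1 and 21.0 against 24.9, 28.1 and 22.4 (0.30 ± 0.09, adjusted p = 0.221). Pik3r1 read 19.0, 19.1 and 22.7 against 25.9, 25.7 and 23.4 (0.31 ± 0.09, adjusted p = 0.215).

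Of the other members apart, Pik3c2a (0.18 ± 0.06) and Pik3r2 (0.04 ± 0.05) lay above vehicle, and Pik3cb (-0.18 ± 0.07), Pik3c3 (-0.11 ± 0.05) and Pik3r4 (-0.10 ± 0.04) below. Pik3ca (0.10 ± 0.07) and Pik3c2b (-0.20 ± 0.11) overlapped. None of these passed the adjusted threshold, which 0 of 16268 genes passed by limma while 2578 had an unadjusted p under 0.05 and limma-voom called 0. The fit of all 42 libraries called Pik3cd and Pik3r1. With the second rows added, the regulatory sum per kilobase was 1.07 ± 0.0637 times the catalytic sum with vehicle (1.00 to 1.12). After exposure it was 1.30 ± 0.0884 times (1.25 to 1.40), a difference not tested, and the ratio was not computed without those rows. The stromal markers summed to 258.6 to 382 CPM with vehicle and 272 to 439 after exposure, and the pluripotency markers to 1699 to 2224 and 1207 to 1843, so both varied widely within groups.

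In granulosa cells 1 member was called higher and 0 lower (1.95% and 0.656% of all genes by limma). Pik3r1 read 159, 181 and 171 CPM with vehicle and 212, 187 and 184 with 1 μM BPS, which did not overlap (0.19 ± 0.05, adjusted p = 0.0291). Leaving out vehicle replicate 1 or 3, or replicate 1 of BPS, ended the call, as did no filter, either rescaling, the replicate block and the fit of all 42 libraries. Of the 8 transcripts of the ribosomal RNA type tested, 7 were also called lower with BPS. They were Rn28s1, Lars2, Rn7sk, Rn7s1, Rn7s2, Rmrp and AY036118, not all of which are ribosomal RNA. The share of this type was 0.833%, 0.113% and 1.13% of reads with vehicle and 0.155%, 0.0992% and 0.0679% with BPS. The 3 smooth muscle markers summed to 1993 to 2051 CPM with vehicle and 2208 to 2328 with BPS. The part of either in the result was not tested. The other 9 members lay between -0.05 (Pik3c2a) and 0.05 (Pik3ca), and ranges were apart in 1 member against 19.9% of all genes. Between these were Pik3cd (-0.01), Pik3r2 (-0.02), Pik3r3 (-0.01), Pik3c3 (-0.03), Pik3cb (0.02), Pik3c2b (0.02) and Pik3r4 (0.03).

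Sertoli cells had 0 members called by limma (3.76% of all genes higher, 1.48% lower), with 3 at an unadjusted p under 0.05 and 0 by limma-voom. Those were Pik3r3, at 27.9, 30.2 and 30.2 CPM with vehicle and 26.3, 24.3 and 27.99 with BPS (-0.17 ± 0.06, adjusted p = 0.1003), Pik3cb (0.09 ± 0.04, adjusted p = 0.153) and Pik3c2b (-0.56 ± 0.24, adjusted p = 0.173). Pik3r3 passed without BPS replicate 3 (-0.22, adjusted p = 0.0495). Pik3c2b was near 1 CPM, at 1.11, 1.38 and 1.85 with vehicle and 1.01, 0.897 and 0.948 with BPS. Ranges were apart in 2 members, against 25.6% of all genes. Pik3cb was above vehicle and Pik3c2b below.

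**Figure D4:**
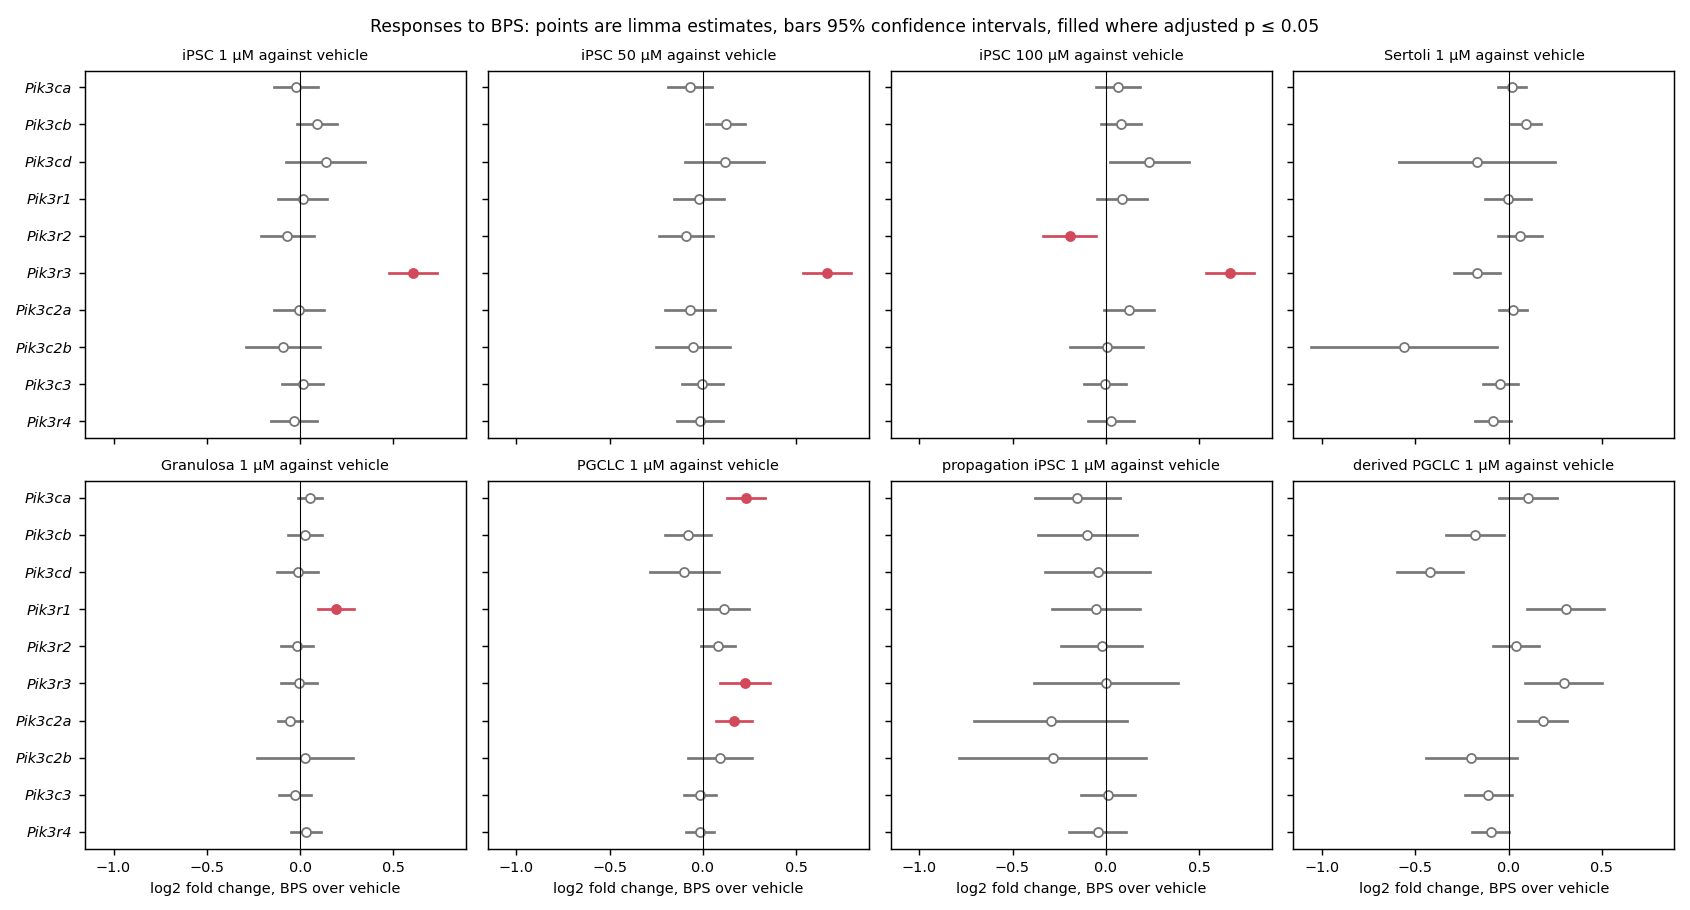
Log2 fold change of each PI3K subunit gene with BPS over vehicle (limma estimate, 95% confidence interval) in 8 comparisons, filled where the adjusted p was 0.05 or less. Pik3r3 is filled at all 3 iPSC doses (0.61, 0.66 and 0.67) and in PGCLCs (0.22), and no member is filled in Sertoli cells, propagation iPSCs or derived PGCLCs.

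The responses to 1 μM were then compared directly between the 4 cell types, in a limma fit of 24 libraries. The iPSCs in this fit were those of the dose series. Propagation iPSCs, with Pik3r3 at 16.4 CPM ± 1.30 with vehicle and 16.6 ± 3.78 with BPS, were not in it. The differences that involve iPSCs thus rest on the dose series alone. Of the 8 differences called, 4 were in Pik3r3. Its response was larger in iPSCs than in Sertoli cells by 0.78 ± 0.08 on the log2 scale (adjusted p = 3.22e-06), than in granulosa cells by 0.61 ± 0.08 (adjusted p = 7.18e-05) and than in PGCLCs by 0.38 ± 0.08 (adjusted p = 0.00181). It was smaller in Sertoli cells than in PGCLCs by 0.39 on that scale (-0.39 ± 0.08, adjusted p = 0.00285). All 4 were called under each of 21 alternatives.

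Pik3ca responded less in iPSCs than in PGCLCs (-0.25 ± 0.05, limma adjusted p = 0.00278) and less in Sertoli cells than in PGCLCs (-0.21 ± 0.05, adjusted p = 0.0177). The second was lost without PGCLC vehicle replicate 1 or PGCLC BPS replicate 2. Pik3c2a responded less in granulosa cells than in PGCLCs (-0.22 ± 0.06, adjusted p = 0.0290), called in 14 of 21 alternatives. The call was lost without granulosa vehicle replicate 1 or 3, granulosa BPS replicate 1 or 2, PGCLC vehicle replicate 1 or PGCLC BPS replicate 2 or 3, and Pik3ca (-0.18, adjusted p = 0.0555) was called without PGCLC vehicle replicate 2 or BPS replicate 1. Pik3c2b differed between Sertoli cells and PGCLCs (-0.65 ± 0.19, adjusted p = 0.0350), in 9 of 21, with under 2 CPM in every Sertoli library. Leaving out any 1 Sertoli or PGCLC library but Sertoli vehicle replicate 1 or Sertoli BPS replicate 1 ended that call, and limma-voom did not make it (adjusted p = 0.120). Without Sertoli vehicle replicate 1, Pik3c2b also differed between Sertoli cells and both iPSCs and granulosa cells. Between iPSCs and PGCLCs, Pik3c2a (-0.17, adjusted p = 0.0579) was called without iPSC vehicle replicate 2, iPSC BPS replicate 1 or 2, PGCLC vehicle replicate 3 or PGCLC BPS replicate 1, and Pik3cb (0.17, adjusted p = 0.115) without PGCLC vehicle replicate 1. With the second rows added Pik3r2 was called there as well (-0.20, adjusted p = 0.0152).

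Counted by pair, limma called 1 member for iPSC against Sertoli cells (11.2% of all genes), 1 for iPSC against granulosa cells (3.48%), 2 for iPSC against PGCLCs (14.1%), 3 for Sertoli cells against PGCLCs (7.38%) and 1 for granulosa cells against PGCLCs (5.7%). Between Sertoli and granulosa cells 0 were called (0.616%), with 2 at an unadjusted p under 0.05 and 0 by limma-voom. The members not called ran from -0.13 (Pik3r2) to 0.47 (Pik3c2b) for iPSC minus Sertoli cells, from -0.18 (Pik3r1) to 0.15 (Pik3cd) for iPSC minus granulosa cells and from -0.18 (Pik3c2b) to 0.24 (Pik3cd) for iPSC minus PGCLCs. The pairs share the libraries of each cell type. The directly exposed PGCLCs also had a shorter recovery than the other types, which cannot be told apart from cell type.

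The neighbours of the subunits in the pathway were read from 6 lists of 67 genes. In the iPSC dose series 5 were called higher and 1 lower at 1 μM (60 tested), 9 and 6 at 50 μM, and 13 and 8 at 100 μM, where limma-voom called 3, 14 and 21 in all. The shares of all genes called higher and lower, given above for each dose, were 5.61% and 2.94%, 13.1% and 13.3%, and 15.3% and 15.4%, so these counts sit near the background. Pik3ip1, a membrane protein that inhibits p110, was higher at all 3 doses, at 12.1, 12.05 and 15.9 CPM against 9.97 with vehicle (adjusted p = 0.0474, 0.0265 and 2.01e-05 by limma). Inpp5d, the 5-phosphatase SHIP1, rose by 0.25, 0.22 and 0.19 on the log2 scale, and the receptor gene Erbb2 by 0.28, 0.42 and 0.39. At 1 μM limma-voom did not call Pik3ip1 (adjusted p = 0.0616) or Erbb2 (adjusted p = 0.0506).

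The FOXO-induced genes Trim63 (0.40, 0.61 and 0.38) and Pdk4 (0.36, 0.58 and 0.70) also rose at every dose in iPSCs, while 6 or 5 of the 8 tested in that list were not called. At 1 μM limma-voom did not call Pdk4 (adjusted p = 0.0698). The median log2 fold change of the FOXO-induced list was 0.07, 0.10 and 0.13 at the 3 doses, beside -0.01, -0.00 and -0.00 for all genes. The receptor Fgfr2, under 2 CPM, was lower at 1 μM (-0.65, adjusted p = 0.0393 by limma) and again at both higher doses. In the AKT and mTOR list limma called 0 of 20 at 1 μM (2 at an unadjusted p under 0.05, 0 by limma-voom), and in the class III partner list 0 of 6 at any dose (0 unadjusted, 0 by limma-voom). Akt1 was higher at 50 μM (44.8 to 53.6 CPM) and at 100 μM (50.7), with adjusted p of 0.00406 and 0.0302 by limma. Mapkap1 (-0.20) and Rheb (-0.22) were among 5 of that branch called lower at 100 μM.

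In exposed PGCLCs 12 pathway genes were higher and 12 lower (63 tested), where 15.4% of all genes were higher and 11.3% lower. The FOXO-induced list had 0 higher and 4 lower of 9, led by Ccng2 (37.3 to 24.7 CPM, -0.60) and Bcl2l11 (39.5 to 33.2, -0.25), with a median of -0.12 beside 0.02 for all genes. Among receptors Pdgfrb (0.60) and Erbb2 (0.38) rose and Kit (-0.33) fell, and among the class III partners the autophagy subunit Atg14 fell (70.2 to 54.2 CPM, -0.37) and Rubcn rose (0.36). Rictor fell by 0.32 and Foxo4 rose by 0.36, each with adjusted p by limma of 1.27e-05 and 1.54e-05. The phosphatases Inppl1 (0.22) and Mtmr6 (0.24) rose while Inpp5d fell by 0.24, the opposite of its direction in iPSCs, a difference that was not tested.

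In the other groups few or no pathway genes passed. Sertoli cells had 1 higher (Rheb, 0.14) and 1 lower (Erbb3, -0.23) of 61 tested (3.76% and 1.48% of all genes), and granulosa cells 2 higher of 62 (Pik3ip1, 0.22, and Inppl1, 0.11), where 1.95% of all genes were higher. limma-voom did not call Pik3ip1 there (adjusted p = 0.0536). Propagation iPSCs (60 tested) and derived PGCLCs (61 tested) had 0 called by limma and 0 by limma-voom, with 6 and 12 at an unadjusted p under 0.05. List medians were up to 0.17 in derived PGCLCs (receptors, 8 of 15 at an unadjusted p under 0.05) and down to -0.14 in propagation iPSCs (phosphatases, 2 of 10).

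**Figure D5:**
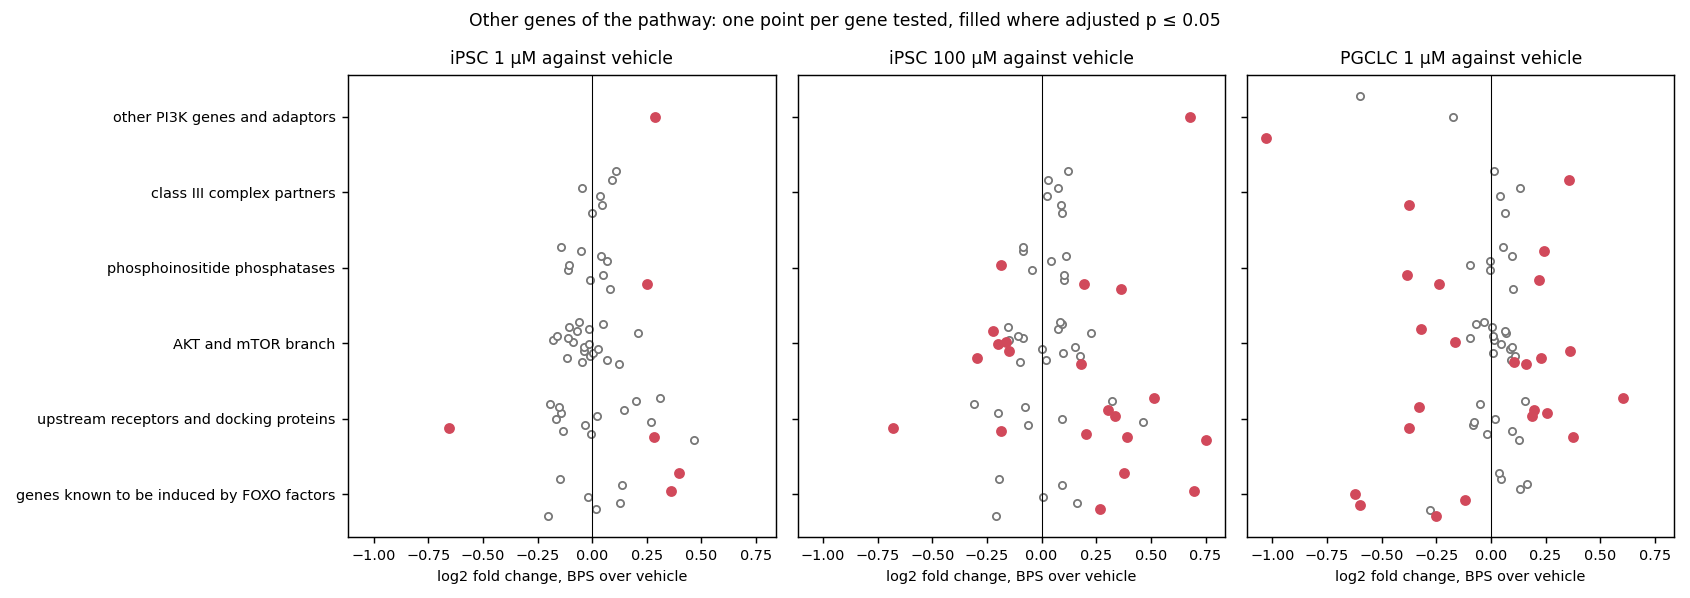
Log2 fold change with BPS of each pathway gene tested, grouped by list, in iPSCs at 1 μM and 100 μM and in PGCLCs at 1 μM (filled, adjusted p of 0.05 or less by limma). The filled points number 6 in iPSCs at 1 μM, 21 at 100 μM and 24 in PGCLCs, and those of the FOXO-induced list lie to the right in iPSCs and to the left in PGCLCs.

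The genes whose mean log2 CPM most resembled each responding member across the 14 groups were drawn from 11592 genes, as a description. The groups share lines and vehicle designs, and the correlations mostly follow cell type. For Pik3r3 they were Aen (Pearson r = 0.937), Abhd14b (0.886) and Rpe (0.882). For Pik3ca they were C1galt1c1 (0.992), Mgp (0.991) and Cep170 (0.990), and for Pik3c2a Dpy19l4 (0.995), Dyrk2 (0.995) and Clec16a (0.993). Pik3r1 was closest to Vegfd (0.990), Zbtb8b (0.988) and Arxes2 (0.985), and Pik3r2 to Repin1 (0.970), Spryd7 (0.953) and Armcx5 (0.946).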

How the data were processed

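Expression was measured by RNA-seq in 42 libraries, 3 in each of 14 groups, the group taken from the sample labels. The authors deposited log2 values of TMM-scaled counts (CPM) for 22186 genes, made from strand-specific poly(A) libraries aligned to mm10 with Rsubread and scaled in edgeR, with 0.0313 CPM added before the log. Sources used here give neither the annotation nor the strand setting of the counting. With the log undone, 100% of the low values tested were whole reads to within 0.05 reads. The count of sample columns left unused was 0. The deposited log2 values were fitted with limma 3.58.1 (trended eBayes, R 4.3.3), two-sided, on genes with at least 0.5 CPM in at least 3 libraries, with Benjamini-Hochberg adjustment over all genes tested. The dose series was 1 fit of 12 libraries, the other BPS comparisons used their own 6, the vehicle comparisons 18 and the differences in response 24 or 12. limma-voom on the recovered reads, other filters and scalings, other sets of libraries, and each replicate left out were alternatives. The functions were tested on simulated data. The rule was to name all 10 members in each comparison that called any (for differences in response, those not called are mostly given by range), pathway genes by up to 3 called per list, and like genes as the 3 with the highest Pearson correlation. Some further genes (Pik3ip1, Inpp5d and Erbb2 across doses among them) were named after their values were seen. The members and lists were chosen with earlier results of these data known. Fold changes on this scale understate those of low genes. Exon lengths came from GENCODE M21, and figures from Python 3 with matplotlib.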

Additional observations from a re-analysis of the deposited data

Results flagged for a closer look

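Between cell types, 8 differences in response to 1 μM BPS passed the test of the difference itself (limma interaction term, adjusted p of 0.05 or less over 19157 genes). The iPSCs in these tests were those of the dose series, without the propagation iPSCs. Pik3r3 responded more in iPSCs than in Sertoli cells (0.78 on the log2 scale), granulosa cells (0.61) and PGCLCs (0.38), and less in Sertoli cells than in PGCLCs (-0.39). Pik3ca responded less in iPSCs (-0.25) and in Sertoli cells (-0.21) than in PGCLCs. Pik3c2a responded less in granulosa cells than in PGCLCs (-0.22), and Pik3c2b less in Sertoli cells than in PGCLCs (-0.65). A formal search for single outlying samples was not run, since every group held 3 libraries. Replicate pairs were compared by a mean chi-square per gene. In exposed propagation iPSCs the pairs with replicate 2 were at 57.8 and 55.7, against 5.95 for replicates 1 and 3. In PGCLCs with vehicle the pairs with replicate 1 were at 40.95 and 38.16, against 2.02 for replicates 2 and 3. In granulosa cells with vehicle the pairs with replicate 2 were at 17.9 and 25.1, against 3.60 for replicates 1 and 3. There replicate 2 had the lower share of ribosomal RNA type transcripts (0.113%), near that of the BPS libraries (0.0679% to 0.155%). Replicates 1 and 3 had 0.833% and 1.13%. In iPSCs of the dose series at 1 μM all pairs were high, at 25.5, 19.2 and 19.3, against 3.41 to 7.56 with vehicle. Derived PGCLCs reached 16.9 with vehicle and 15.1 with BPS.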

How the results depend on the processing

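No member called in the reported tests changed sign under any alternative run, while several uncalled differences near 0 did, such as Pik3c2a for Sertoli against granulosa cells (0.06 to -0.02) and Pik3cd in Sertoli cells (-0.17 to 0.01). Pik3r3 in the iPSC dose series kept its call under all. The number of members called changed by more than 1.5 times in these cases. Upper-quartile rescaling gave 2 for iPSC at 50 μM and 0 for granulosa cells, and median-ratio rescaling and no filter gave 0 for granulosa cells. The fit of all 42 libraries gave 0 for granulosa cells, 1 for PGCLCs, 1 for propagation iPSCs (Pik3c2a) and 2 for derived PGCLCs (Pik3cd and Pik3r1). Adding the second rows, chosen after seeing the data, gave 1 for iPSC at 100 μM. For granulosa cells minus PGCLCs the stricter filter of 5 CPM, median-ratio rescaling and the replicate block each gave 2. The causes were not tested. Leaving out each replicate in turn gave 1 to 2 members at 100 μM, 0 to 1 in Sertoli cells, 0 to 1 in granulosa cells, 1 to 3 in PGCLCs, 6 to 7 for Sertoli against granulosa cells, 9 to 10 for granulosa cells against iPSCs and 6 to 7 for derived PGCLCs against propagation iPSCs. For differences in response it gave 1 to 2 (iPSC minus Sertoli), 2 to 3 (iPSC minus PGCLC), 0 to 1 (Sertoli minus granulosa), 1 to 3 (Sertoli minus PGCLC) and 0 to 2 (granulosa minus PGCLC).

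In no comparison did all 3 same-numbered replicates deviate together, with correlations above 0.1. The correlations of their deviations from the group means ran from -0.401 (PGCLC) to 0.183 (derived PGCLC). For iPSCs at 50 μM they were 0.121 and 0.129 for replicates 1 and 3, and -0.0201 for replicate 2. With the replicate block 0 members were called in granulosa cells, against 1 without it. Upper-quartile rescaling moved the median of all genes for Sertoli cells against iPSCs from -0.04 to -0.16 and ended the calls of Pik3r1 and Pik3r2 there. Depth limits Pik3cd and Pik3c2b in Sertoli cells, with 35 and 24 reads in their lowest libraries.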
